A study of Mus musculus with 5 samples.

Results

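The genes described here are 10 members of the NRF2 antioxidant pathway, Nfe2l2, Keap1, Sqstm1, Hmox1, Nqo1, Gclc, Gclm, Srxn1, Txnrd1 and Prdx1, followed across 5 RNA sequencing libraries of primary microglia. They were chosen by gene symbol, and each of the 10 matched 1 row of the count table, which lists 21983 genes. All 10 passed the filter on low counts and were among the 12543 genes tested.

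NRF2, the product of Nfe2l2, is a transcription factor that is bound by KEAP1 in the cytoplasm and handed to a ubiquitin ligase for degradation. When oxidants or electrophiles modify KEAP1, or when the autophagy receptor p62, the product of Sqstm1, occupies it, NRF2 escapes degradation. It then pairs with small MAF proteins at antioxidant response elements and switches on genes for haem breakdown, quinone reduction, glutathione synthesis and thioredoxin recycling. In macrophages and microglia the target Hmox1 is also controlled by the haem-sensing repressor BACH1, which binds the same elements.

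The libraries labelled knockout, called labelled knockouts here, carry Cx3cr1CreERT2, a tamoxifen-inducible Cre recombinase driven by Cx3cr1, together with Ythdf2fl/fl, and there are 2 of them. The 3 controls carry Ythdf2fl/fl alone, so the floxed alleles are shared by both groups, while carriage of the Cre allele and deletion of Ythdf2 cannot be told apart in this design. Ythdf2 encodes a reader of N6-methyladenosine that promotes decay of marked mRNAs, and the study asked which processes and pathways depend on it in microglia. The tissue given is brain, and age, tamoxifen dosing and whether each library is a separate animal or culture are not given in the labels, so the p-values speak for the spread among these libraries alone, which may be technical.

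Gene counts summed to 13947500 to 19577217 per library, and the 10 genes together took 0.299% and 0.381% of the counts in the labelled knockouts, against 0.53% to 0.662% in the controls. Ythdf2 went against its label: it stood at 103.5 and 127 CPM in the labelled knockouts, against 57.0 to 69.2 CPM in the controls (CPM, counts as a rate over each library's total after TMM scaling). A count over the whole gene includes exons that a deletion can leave in place, so it does not check the deletion, and every direction below is drawn from the labels. Cx3cr1, the gene that drives the Cre and itself a microglia marker, stood at 337 and 97.7 CPM in the labelled knockouts, against 681 to 992 CPM in the controls, below every control. Of 12 microglia markers, Csf1r was abundant, at 2416 and 3154 CPM in the labelled knockouts and 2372 to 4220 CPM in the controls, while Siglech was near 0 and Trem2 was listed at 0 in all 5 libraries. A 0 in this table is not a sure sign of absence, since Gstp1 and Txnrd2, which most cells express, are listed at 0 as well. In bulk RNA, fewer cells of a type and less RNA per cell cannot be told apart.

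Antioxidant response elements share a core that can be written TGACNNNGC, and a close form found in some NRF2 targets is TGAGNNNGC. Both were searched on both strands in the 250 bases before each annotated start site (RefSeq, GRCm38.p6), where a match on the other strand reads GCNNNGTCA or GCNNNCTCA. The second form was added after the sequences had been read. RefSeq promoters were matched for 8 of the 10 genes, 10 promoters in all because Txnrd1 has 3, and 5 genes held a match: Nfe2l2, Gclm, Srxn1, Txnrd1 and Prdx1. Of all 32851 promoters, 10.2% held the first form, 14.4% the second and 23% either, so a match is common and describes the letters alone. Printed are the promoters of Sqstm1, Gclm, Srxn1 and Txnrd1, in which both labelled knockouts lay below every control, and of Prdx1, whose groups overlapped. Capitals mark the matches. They lie at chr11:50210821-50211070 on the minus strand for Sqstm1, chr3:122245307-122245556 for Gclm, chr2:152105274-152105523 for Srxn1, chr10:82858956-82859205 for the second Txnrd1 start and chr4:116685349-116685598 for Prdx1, the last 4 on the plus strand.
Sqstm1: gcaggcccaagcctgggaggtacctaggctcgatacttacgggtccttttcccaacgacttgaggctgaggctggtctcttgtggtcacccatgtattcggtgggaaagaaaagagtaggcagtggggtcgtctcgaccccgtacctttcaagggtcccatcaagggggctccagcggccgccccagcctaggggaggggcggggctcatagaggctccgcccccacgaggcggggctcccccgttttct
Gclm: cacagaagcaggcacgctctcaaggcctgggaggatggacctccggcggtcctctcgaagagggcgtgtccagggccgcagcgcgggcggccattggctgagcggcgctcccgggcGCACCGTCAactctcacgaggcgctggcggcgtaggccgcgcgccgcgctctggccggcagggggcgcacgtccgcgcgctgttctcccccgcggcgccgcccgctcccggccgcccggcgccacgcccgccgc
Srxn1: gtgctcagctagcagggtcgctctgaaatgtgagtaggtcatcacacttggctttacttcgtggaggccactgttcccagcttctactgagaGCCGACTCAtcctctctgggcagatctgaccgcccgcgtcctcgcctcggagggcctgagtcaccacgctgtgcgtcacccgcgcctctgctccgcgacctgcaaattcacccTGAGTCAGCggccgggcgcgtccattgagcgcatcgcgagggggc
Txnrd1: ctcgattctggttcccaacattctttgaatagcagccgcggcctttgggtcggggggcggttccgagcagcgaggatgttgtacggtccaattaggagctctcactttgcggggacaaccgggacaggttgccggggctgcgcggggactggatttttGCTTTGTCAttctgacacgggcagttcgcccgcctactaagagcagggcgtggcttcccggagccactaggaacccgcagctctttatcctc
Prdx1: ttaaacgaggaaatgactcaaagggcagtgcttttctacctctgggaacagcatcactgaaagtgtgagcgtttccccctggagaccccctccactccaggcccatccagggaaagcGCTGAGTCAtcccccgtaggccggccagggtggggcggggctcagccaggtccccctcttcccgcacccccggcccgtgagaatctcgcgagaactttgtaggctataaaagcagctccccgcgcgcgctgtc
In Prdx1 the match read on its own strand is TGACTCAGC, and in Srxn1 the match nearest the start site is TGAGTCAGC, 45 bases before it. The Gclm match lies 134 bases before its start site and that of Txnrd1 92 bases before. The Sqstm1 window held no match, which says only that these letters are not in those 250 bases.

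Across the set, Hmox1 had the largest difference, followed by Sqstm1, Gclm, Srxn1 and Txnrd1, and in these 5 genes both labelled knockouts lay below every control. None of the 10 lay above every control. Both labelled knockouts lay below every control in 10.4% of all genes tested and above every control in 9.85%. Negative log2 fold changes were found in 8 of 10 members, against 48.9% of all genes, with a median of -0.52 over the members and 0.01 over all genes tested. No member passed edgeR's quasi-likelihood test adjusted over all genes, nor did any of the 12543 genes (0% called, smallest adjusted p = 0.231). At an unadjusted p under 0.05 edgeR found 4 members lower and 0 higher, where 2.69% of all genes were lower and 3.99% higher at that level, 6.68% in all. DESeq2 called 2 members, Hmox1 and Sqstm1, both lower, where 0.734% of genes were called lower and 1.95% in either direction. Limma-voom called 0 members and 0 genes, with 759 genes at an unadjusted p under 0.05.

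**Figure D1:**
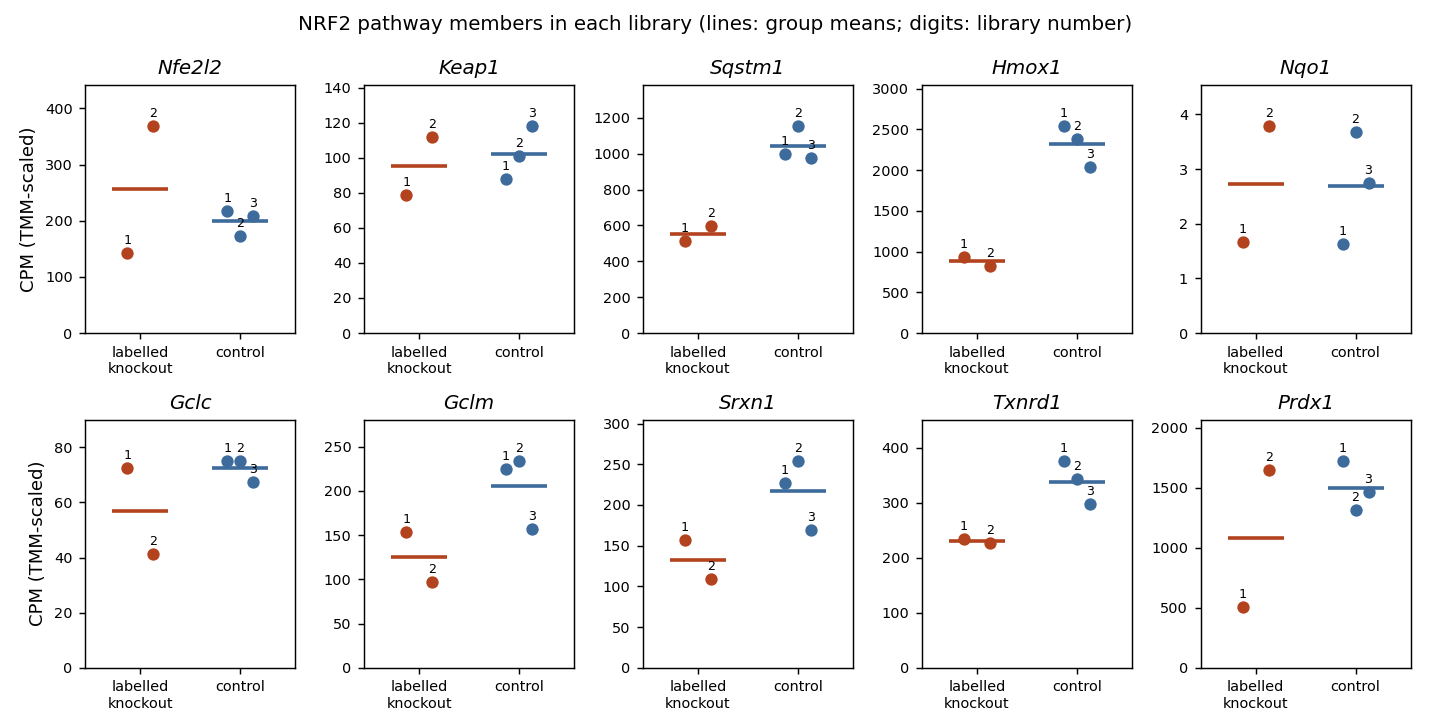
Each panel plots 1 gene, with CPM on a linear axis from 0 and libraries by group (points with library numbers, lines for group means). Hmox1, Sqstm1, Gclm, Srxn1 and Txnrd1 show both labelled knockouts below all 3 controls, while in Nfe2l2 and Prdx1 the labelled knockouts stand far apart.

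Hmox1 encodes haem oxygenase 1, the inducible enzyme that opens haem into biliverdin, iron and carbon monoxide. It lies on chromosome 8 at 75093621 to 75100589 (plus strand, GRCm38, GENCODE M21), and no other annotated gene overlaps its exons. It stood at 938 and 824 CPM in the labelled knockouts, against 2539, 2377 and 2036 CPM in controls 1 to 3. Both labelled knockouts were close to each other and well under the lowest control. The means were 881 ± 80.2 CPM (SD, n = 2) and 2317 ± 257 CPM (SD, n = 3), and edgeR gave a log2 fold change of -1.40 (SE 0.287, adjusted p = 0.34). DESeq2 gave -1.38 (SE 0.249) with adjusted p = 1.4e-05. With each library left out in turn the edgeR value stayed between -1.52 and -1.31. The DESeq2 call was lost without control 1 (adjusted p = 0.0935) and without control 2 (adjusted p = 0.0502), and held without either labelled knockout or control 3.

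Several marker lists also differed between the groups, some lower and some higher in the labelled knockouts. The 12 microglia markers summed to 3963 and 6546 CPM in the labelled knockouts, against 7643 to 8025 CPM in the controls, with 4 below every control and 2 above. Immediate early and dissociation-response genes summed to 341 and 718 CPM in the labelled knockouts, against 863 to 1217 CPM in the controls, with 6 of 9 below every control. Choroid plexus and ependymal markers summed to 169 and 225 CPM in the labelled knockouts and 11.9 to 30.7 CPM in controls, with 6 of 8 above every control. Fibroblast and mural markers summed to 34.8 and 15.6 CPM in the labelled knockouts, against 41.1 to 128 CPM in the controls, with 6 of 9 below every control. Markers of cycling cells overlapped as a sum, at 1267 and 241 CPM in the labelled knockouts and 73.0 to 264 CPM in controls, but 4 of the 5 lay above every control. The 7 oligodendrocyte-lineage markers summed to 11150 and 4229 CPM in the labelled knockouts. In controls 1 to 3 that sum was 9861, 8679 and 1057 CPM, so it overlapped and was lowest in control 3. Monocyte markers overlapped as a sum, at 54.9 and 29.1 CPM in the labelled knockouts and 6.29 to 66.0 CPM in controls. Of these 6 markers, 2 lay above every control. The part of these lists in the differences of Hmox1 and the other members was not tested. Border-associated macrophage markers, of macrophages known for haem uptake through Cd163, overlapped as a sum, at 564 and 2022 CPM in the labelled knockouts against 494 to 1354 CPM in the controls. Cd163 itself was at 8.74 and 9.89 CPM in the labelled knockouts and 2.60 to 8.85 CPM in controls. F13a1, of the same list, was above every control, at 79.1 and 185 CPM in the labelled knockouts and 23.9 to 47.0 CPM in controls. Lyve1 was below every control, at 0.476 and 0.324 CPM in the labelled knockouts and 0.520 to 1.19 CPM in controls. The part of these macrophages in the Hmox1 difference was not tested. Of 6 erythroid markers, 5 were listed at 0 in every library, the haemoglobin genes included.

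Nqo1, a quinone reductase often used as a reporter of NRF2, was barely present. It had 28 and 70 counts in the labelled knockouts and 26 to 58 counts in the controls, or 1.67 and 3.78 CPM in the labelled knockouts and 1.63 to 3.68 CPM in controls. The groups overlapped fully, and the log2 fold change of 0.03 (SE 0.58) changed sign without labelled knockout 2 (-0.69) and without control 1 (-0.23). With an SE of 0.58, a difference of the size measured in Sqstm1 (-0.91) could not be told from the spread between libraries.

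Among the regulators, Sqstm1 was the one whose groups did not overlap. Its product p62 carries ubiquitinated cargo to autophagosomes and binds KEAP1, and the gene is itself an NRF2 target. It stood at 513 and 597 CPM in the labelled knockouts, against 1001, 1153 and 977 CPM in the controls. The groups were apart, with 555 ± 59.6 CPM (SD, n = 2) against 1044 ± 95.2 CPM (SD, n = 3). The edgeR log2 fold change was -0.91 (SE 0.25, adjusted p = 0.503), and DESeq2 called the gene (adjusted p = 0.0146). The DESeq2 call was lost with any single library left out (adjusted p = 0.0653 to 0.696), while the edgeR value stayed between -1.03 and -0.84. Sqstm1 lies on chromosome 11 at 50199366 to 50210827 (minus strand), and its exons overlap those of Mrnip on the other strand. Mrnip had 5 to 18 counts per library, against 8622 or more for Sqstm1.

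Nfe2l2 did not separate the groups. It was at 143 CPM in labelled knockout 1 and 368 CPM in labelled knockout 2, against 217, 172 and 207.5 CPM in the controls. The labelled knockouts were the lowest and the highest of the 5. Its log2 fold change of 0.36 (SE 0.409, edgeR adjusted p = 0.926) was 0.86 without labelled knockout 1 and -0.48 without labelled knockout 2. Keap1, the adaptor that presents NRF2 for degradation, stood at 78.9 and 112 CPM in the labelled knockouts, against 87.9, 101 and 118 CPM in the controls. Its groups overlapped and its log2 fold change was -0.10 (SE 0.248), with a sign that turned without labelled knockout 1 (0.10) and without control 3 (0.02). Exons of Keap1 overlap the antisense gene Gm16754, whose reads cannot be told apart if counting ignored strand.

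Glutathione synthesis starts with glutamate-cysteine ligase, made of a catalytic subunit from Gclc and a modifier subunit from Gclm. Gclm stood at 153 and 97.3 CPM in the labelled knockouts, against 225, 234 and 157 CPM in the controls. The groups did not overlap, though control 3 exceeded labelled knockout 1 by little. The log2 fold change was -0.71 (SE 0.307, edgeR adjusted p = 0.776), -1.11 without labelled knockout 1 and -0.42 without labelled knockout 2. Gclc was at 72.5 and 41.5 CPM in the labelled knockouts and 75.1, 74.9 and 67.5 CPM in controls. Labelled knockout 1 lay within the controls and labelled knockout 2 below them. Its log2 fold change of -0.35 (SE 0.282, edgeR adjusted p = 0.921) was -0.84 without labelled knockout 1 and -0.0011 without labelled knockout 2. Gclm lies on chromosome 3 at 122245557 to 122270732 (plus strand), where its exons overlap the pseudogene Gm6061 on the same strand and Gm17494 on the other, so its reads are less certain than those of Gclc.

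Of the thioredoxin branch, Txnrd1 and Srxn1 lay below every control and Prdx1 did not. Txnrd1, the cytosolic thioredoxin reductase, was at 235 and 226 CPM in the labelled knockouts, against 376, 343 and 297 CPM in the controls. The labelled knockouts were close to each other and below the lowest control, with means of 230.5 ± 6.05 CPM (SD, n = 2) and 339 ± 39.5 CPM (SD, n = 3). The log2 fold change was -0.56 (SE 0.217, edgeR adjusted p = 0.719), and it stayed between -0.64 and -0.47 with each library left out. Srxn1, the sulfiredoxin that restores over-oxidised peroxiredoxins, was at 157 and 109 CPM in the labelled knockouts and 227, 254 and 169 CPM in controls. The groups were apart by a narrow gap between labelled knockout 1 and control 3. Its log2 fold change was -0.71 (SE 0.286, edgeR adjusted p = 0.745), -1.02 without labelled knockout 1 and -0.47 without labelled knockout 2. Txnrd1 lies on chromosome 10 at 82833951 to 82897712 and Srxn1 on chromosome 2 at 152105516 to 152111376, both on the plus strand, with no overlapping exons of other genes.

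Prdx1, an abundant peroxiredoxin that reduces hydrogen peroxide, had the widest range of values with single libraries left out. It was at 507 CPM in labelled knockout 1 and 1648 CPM in labelled knockout 2, against 1723, 1315 and 1467 CPM in the controls. Of the labelled knockouts, number 1 alone was below the controls. The log2 fold change of -0.48 (SE 0.518, edgeR adjusted p = 0.926) was 0.11 without labelled knockout 1 and -1.57 without labelled knockout 2. DESeq2 called it lower without labelled knockout 2 (adjusted p = 0.00146). In labelled knockout 1 short transcripts were low in general: over the 2502 shortest genes, of at most 1588 bases, the median log2 CPM lay 0.441 below each gene's mean over the 5 libraries, and over the 2502 longest it lay 0.363 above. In the other 4 libraries those medians were between -0.178 and 0.238 for the short genes. With this trend removed the Prdx1 log2 fold change was -0.48, and that of Hmox1 -1.28. Both values pool the 2 labelled knockouts, and in labelled knockout 2 the median of the short genes lay 0.238 above instead. They therefore cannot show the part of transcript length in the value of labelled knockout 1 alone, which was not tested.

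**Figure D2:**
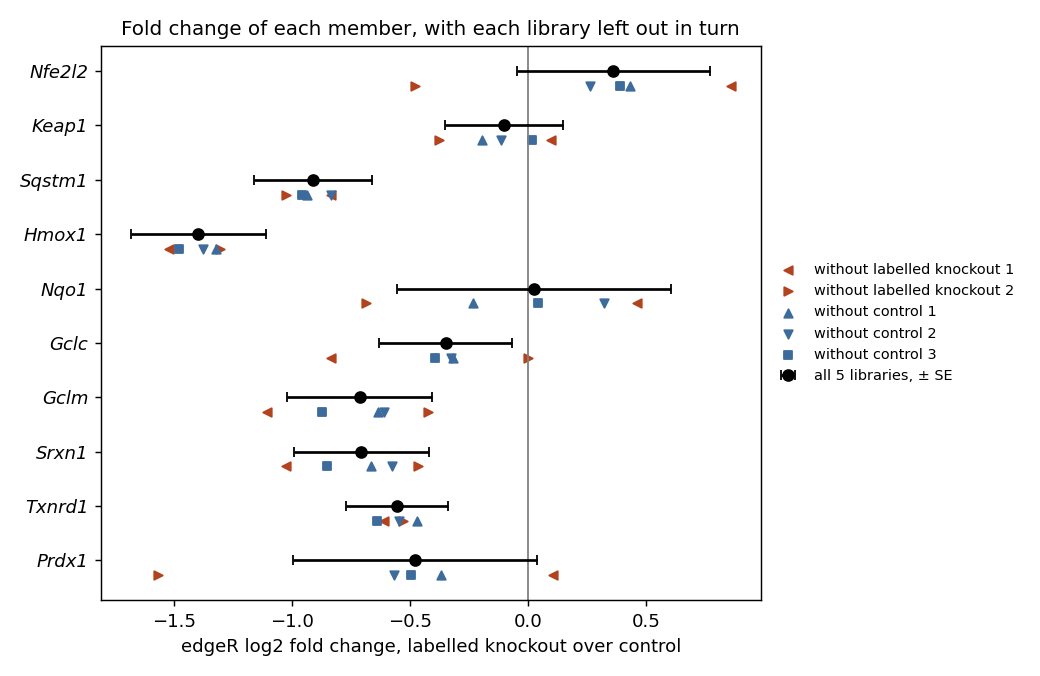
Black points give the edgeR log2 fold change, labelled knockout over control, with bars of ± SE from the fit to all 5 libraries, and coloured marks give the value with 1 library left out. Hmox1, Sqstm1 and Txnrd1 keep to a narrow range below 0, while Nfe2l2, Keap1, Nqo1 and Prdx1 cross 0.

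The members differed in which library was lowest. In labelled knockout 1 the values of Nfe2l2, Keap1, Sqstm1 and Prdx1 were the lowest of all 5 libraries, a place that library held in 33.1% of all genes tested. In labelled knockout 2 it was Hmox1, Gclc, Gclm, Srxn1 and Txnrd1 that were lowest, a place for which no share of all genes was computed. Among the controls, control 3 was the lowest in 6 of 10 members, Hmox1, Sqstm1, Gclc, Gclm, Srxn1 and Txnrd1, as it was in 37.7% of all genes. Levels can be set against each other once divided by transcript length. In CPM per kilobase the order in the labelled knockouts began with Prdx1 at 680 ± 509 and Hmox1 at 561.5 ± 51.1, whose ranges overlapped, followed by Sqstm1 at 272 ± 29.2 and Nfe2l2 at 103 ± 64.3 (SD, n = 2). In the controls Hmox1 led at 1477 ± 164, above Prdx1 at 947 ± 130.1 and Sqstm1 at 512 ± 46.8 (SD, n = 3), with no overlap among these 3. Txnrd1, Nfe2l2, Srxn1 and Gclm followed at 98.8, 80.4, 77.05 and 62.2 CPM per kilobase in the controls, each overlapping its neighbour. Keap1 and Gclc came next in both groups, and Nqo1 was last, at 1.75 CPM per kilobase in the labelled knockouts and 1.73 in the controls.

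The wider pathway was followed in a list of other genes. Of 66 other genes of NRF2 control, glutathione and thioredoxin use, superoxide removal, NADPH supply, haem and iron handling, quinone and aldehyde removal and selective autophagy, 63 were tested. Their median log2 fold change was -0.05, with 38 negative and 25 positive, and 8 lay below every control and 6 above, where all genes had 10.4% below and 9.85% above. By edgeR 0 were called, with 2 higher and 2 lower at an unadjusted p under 0.05, beside 6.68% of all genes in either direction. DESeq2 called 1, lower, beside 1.95% of all genes in either direction. These counts are close to what the shares of all genes give. The gene called by DESeq2 was Slc3a2, the heavy chain that pairs with Slc7a11 in the cystine importer, at 198 and 278 CPM in the labelled knockouts against 631, 547 and 469 CPM in the controls. Its log2 fold change was -1.21 (SE 0.277, edgeR adjusted p = 0.37, DESeq2 adjusted p = 0.00788). The DESeq2 call was lost without labelled knockout 1, without control 1, without control 2 and with the replicate number as a block, and it held without labelled knockout 2 and without control 3. Slc7a11, the transporting chain, overlapped between groups at 21.2 and 44.9 CPM in the labelled knockouts and 19.3 to 105.7 CPM in controls.

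Glutathione enzymes pointed both ways. Gpx3, a secreted glutathione peroxidase, was at 41.6 and 116 CPM in the labelled knockouts, against 19.1 to 41.2 CPM in the controls (edgeR log2 fold change 1.54, SE 0.529, edgeR adjusted p = 0.665). Gstm1, a glutathione transferase, was at 30.3 and 129.5 CPM in the labelled knockouts and 23.0 to 44.7 CPM in controls, so only labelled knockout 2 was high. Glrx, a glutaredoxin, was at 62.9 and 80.9 CPM in the labelled knockouts and 117, 101 and 395 CPM in controls (edgeR log2 fold change -1.51, SE 0.662). In each of these 3 genes 1 library stood far from the others of its group. The superoxide dismutase Sod2 was at 84.6 and 165 CPM in the labelled knockouts and 247, 238 and 121 CPM in controls, and the peroxiredoxin Prdx5 at 150.1 and 437 CPM in the labelled knockouts and 428 to 607 CPM in controls, both with overlap. Ephx1, an epoxide hydrolase, was at 83.8 and 89.3 CPM in the labelled knockouts and 57.4, 51.7 and 18.1 CPM in controls, and the efflux pump gene Abcc4 at 55.7 and 41.1 CPM in the labelled knockouts and 30.7 to 36.5 CPM in controls, both above every control. Nqo2, a sister of Nqo1, and Taldo1, an enzyme of the pentose phosphate pathway, had edgeR log2 fold changes of 0.45 (SE 0.329) for Nqo2 and -0.59 (SE 0.384) for Taldo1. Akr1b8, an aldo-keto reductase, was at 9.46 and 14.4 CPM in the labelled knockouts and 14.7 to 85.0 CPM in controls.

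Of 10 genes that regulate or partner NRF2, 8 had a negative log2 fold change, against 48.9% of all genes, and 0 were called. Both labelled knockouts lay below every control in 3 of them, Nfe2l1, Bach2 and Maff, against 10.4% of all genes. Nfe2l1 was at 334 and 278 CPM in the labelled knockouts and 340 to 417 CPM in controls (edgeR log2 fold change -0.28, SE 0.226). Bach1, the haem-sensing repressor of Hmox1, was at 107.5 and 140.1 CPM in the labelled knockouts, against 117 to 133.5 CPM in the controls (edgeR log2 fold change -0.02). Its related repressor Bach2 was at 8.39 and 7.73 CPM in the labelled knockouts and 11.03 to 19.9 CPM in the controls (edgeR log2 fold change -0.88, SE 0.356, edgeR adjusted p = 0.745). Mafg, a small MAF partner of NRF2, was at 188 and 196 CPM in the labelled knockouts and 172 to 208 CPM in controls. The small MAF gene Mafk overlapped too, at 29.5 and 36.75 CPM in the labelled knockouts and 34.6 to 41.55 CPM in controls. Maff, also a small MAF gene, was at 3.99 and 4.97 CPM in the labelled knockouts and 6.17 to 11.2 CPM in controls. Its edgeR log2 fold change was -0.90 (SE 0.407). All 6 other genes of haem breakdown and ferritin overlapped between groups, as did 10000 of all 12543 genes tested. They were the constitutive haem oxygenase Hmox2, the biliverdin reductases Blvra and Blvrb, the ferritin chains Fth1 and Ftl1 and the iron exporter Slc40a1. The 4 autophagy receptors tested beside Sqstm1, namely Nbr1, Optn, Tax1bp1 and Calcoco1, had log2 fold changes of 0.03 to 0.39. Nbr1 (0.15, SE 0.188) lay above every control and none lay below, where all genes had 9.85% above and 10.4% below.

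**Figure D3:**
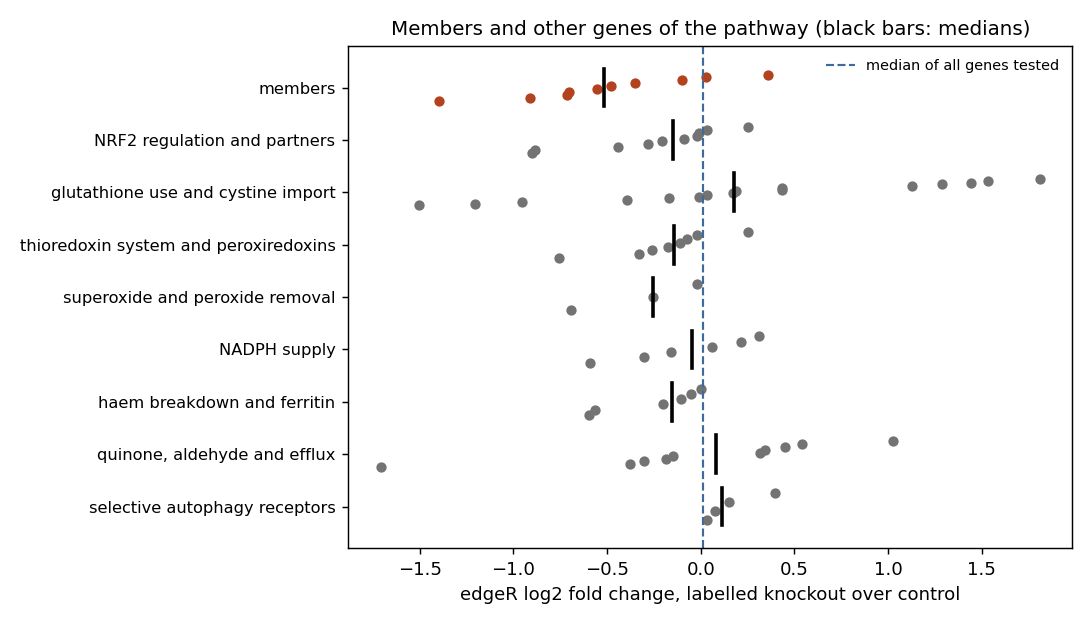
Each point is 1 gene's edgeR log2 fold change, labelled knockout over control, by group of genes, with black bars for group medians and a dashed line for the median of all genes tested (0.01). The members have a median of -0.52, and the 63 other pathway genes spread to both sides of 0.

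**Figure D4:**
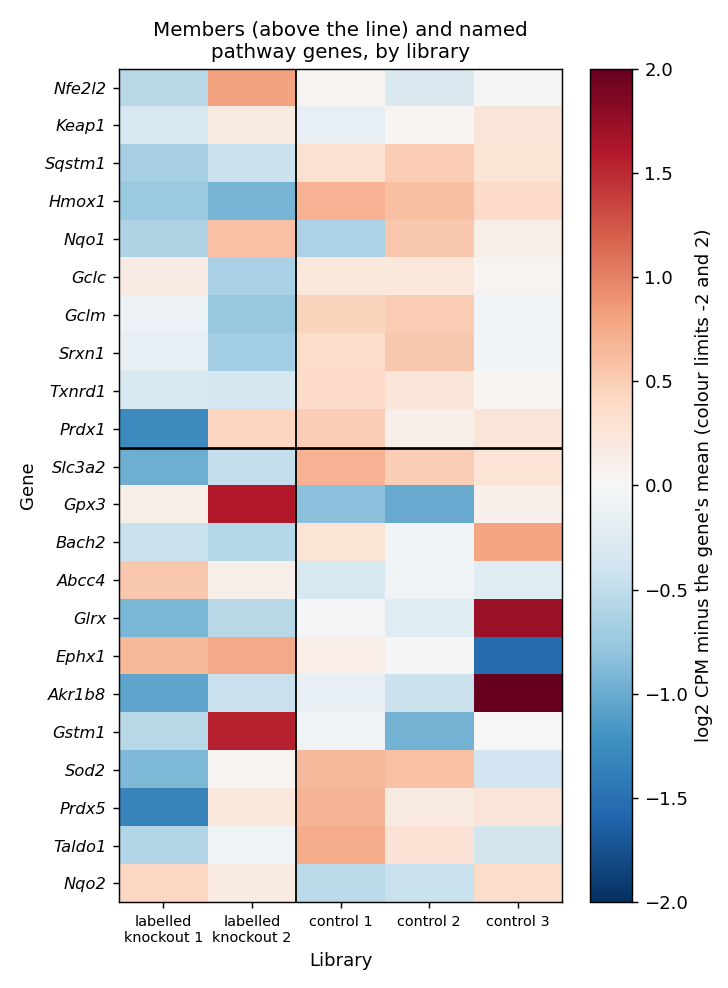
Colours give log2 CPM after subtraction of each gene's 5-library mean, for the 10 members and 12 further pathway genes picked by a fixed rule, with labelled knockouts on the left. The paler or darker blue of Hmox1, Sqstm1, Gclm, Srxn1, Txnrd1 and Slc3a2 in both left columns contrasts with Nfe2l2, Prdx1, Gstm1 and Prdx5, whose left columns differ in colour.

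The genes whose profile over the 5 libraries was most like that of Hmox1 were found by the Euclidean distance between log2 CPM values centred on each gene's mean. The search covered 8529 genes with a mean of at least 10 CPM, with provisional symbols left out. The nearest was Mthfd2, a mitochondrial enzyme of folate metabolism, at 37.4 and 38.7 CPM in the labelled knockouts against 118, 109.5 and 99.2 CPM in the controls (distance 0.219). Klf10, a transcription factor induced by TGF-beta, followed at 24.7 and 20.5 CPM in the labelled knockouts and 50.2, 47.1 and 43.9 CPM in controls (distance 0.382). Trmt61a, Tmem64 and Pde3b completed the 5 nearest, with distances of 0.387, 0.405 and 0.452. Among the members Sqstm1 ranked 28, Srxn1 74, Gclm 81, Txnrd1 137 and Gclc 493 by this distance, while Prdx1 ranked 3086, Keap1 3268, Nqo1 6596 and Nfe2l2 6971. These ranks use the same 5 libraries as the fold changes, so they largely restate the group differences. They are no separate evidence of shared control.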

How the data were processed

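RNA sequencing covered primary microglia from mouse brain, in 2 libraries labelled knockout and 3 controls. The authors deposited whole-number read counts per gene symbol. Per the submitters' processing notes FastQC, STAR, HTSeq and mm10 were used. Versions, annotation and strand setting: not given in the sources used here. Trizol was used for extraction, per the labels' protocols.

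Counts were fitted with edgeR 4.0.16 in R 4.3.3 (two-sided quasi-likelihood test, filterByExpr, TMM, robust estimation, 3 residual degrees of freedom) and adjusted by Benjamini-Hochberg over 12543 genes, with a threshold of 0.05. SE is the log2 fold change over the square root of F. DESeq2 1.42.0 and limma-voom 3.58.1 were alternatives. Log2 CPM has a prior count of 2, except in the colour plot, which has none. No pair of libraries agreed within sampling noise (chi-square per degree of freedom 45.6 to 240.3). The third control's title holds 2 numbers, of which the library number, 3, was taken. Coordinates, overlaps and transcript lengths (median of basic transcripts) come from GENCODE M21, promoters from RefSeq. By rule the text names all members, up to 12 pathway genes with a mean of at least 10 CPM ordered by calls and then p, and the 5 profiles nearest to Hmox1. Slc7a11, Bach1, Nfe2l1, Mafg, Mafk, Maff, the haem and ferritin genes and the autophagy receptors were named after their values were seen. The members and lists were chosen with earlier results of these data known. The steps were tested on simulated data.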

Additional observations from a re-analysis of the deposited data

How the results depend on the processing

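Hmox1, Sqstm1, Gclm, Srxn1 and Txnrd1 kept a negative log2 fold change under all 20 alternatives, among them 3 other scalings, 2 other filters, DESeq2, limma-voom, the replicate block and each library left out. For Hmox1 these values ran from -1.52 to -1.28, and DESeq2 gave -1.38 with all libraries, -1.475 without control 3, -1.50 without labelled knockout 1 and -1.28 without labelled knockout 2, the cases in which it was called. The count of members called was 0 in every edgeR and limma-voom fit, 2 in DESeq2, and in DESeq2 with 1 library left out 0 to 2 (1 without labelled knockout 1, 2 without labelled knockout 2, 1 without control 3). Other pathway genes called numbered 0 in every edgeR and limma-voom fit, 1 in DESeq2 and 0 to 4 with 1 library left out. Over all genes the count was 0 in the main fit and 244 in DESeq2, 75 to 464 in DESeq2 with 1 library left out (182 without labelled knockout 1, 464 without labelled knockout 2, 75 without control 1, 90 without control 2, 308 without control 3) and 158 in DESeq2 with the block. The cause of these differences between tools was not tested.

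With the replicate number as a block, edgeR called 4 genes and 0 members, and DESeq2 0 members. The numbers are shared by 2 pairs and nothing in the labels ties them to an animal or day. Deviations from the group means correlated at 0.148 between labelled knockout 1 and control 1 and at -0.562 between labelled knockout 2 and control 2, across genes. With 2 labelled knockouts these deviations mirror each other, so each correlation of number 2 is that of number 1 with its sign turned. The largest positive values fell in pairs that share no number, 0.562 for labelled knockout 1 with control 2 and 0.473 for labelled knockout 2 with control 3.

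Signs turned in Nfe2l2, Keap1, Nqo1, Gclc and Prdx1. In DESeq2 the log2 fold change of Nfe2l2 was -0.45 without labelled knockout 2, that of Keap1 0.12 without labelled knockout 1, 0.016 without control 3 and 0.015 with the block, and that of Nqo1 -0.66 without labelled knockout 2 and -0.23 without control 1. Gclc was at 0.028 without labelled knockout 2 and Prdx1 at 0.13 without labelled knockout 1. In edgeR with 1 library left out the ranges were -0.48 to 0.86 for Nfe2l2, -0.38 to 0.10 for Keap1, -0.69 to 0.46 for Nqo1 and -1.57 to 0.11 for Prdx1. Where only 1 labelled knockout was left, its spread was taken to be that of the controls. Scaling moved the median of all genes by at most 0.0185.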

Other observations

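Control 3 stood far above the other libraries in 2 of the 63 pathway genes, Glrx and Akr1b8, by more than 2-fold over each of them, as it did in 1.42% of all genes tested. In Akr1b8 it was at 85.0 CPM, with 9.46 and 14.4 CPM in the labelled knockouts and 17.6 and 14.7 CPM in controls 1 and 2. The same library was lowest in Ephx1, at 18.1 CPM. Labelled knockout 1 was the lowest of all 5 in 30 of the 63 pathway genes, against 33.1% of all genes, of any length. Short transcripts were low in general in that library, by a median of 0.441 over the 2502 shortest genes. The part of transcript length in the count of 30 was not tested. Among the 30 were the ferritin chains Fth1 and Ftl1, with transcripts of 929 bases for Fth1 and 735.5 for Ftl1. Fth1 was at 6263 and 14180 CPM in the labelled knockouts and 13450 to 18030 CPM in the controls. Ftl1 was at 3467 and 8227 CPM in the labelled knockouts and 5263 to 7850 CPM in controls.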
